A study of Mus musculus with 16 samples.

Results

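The clock genes and clock outputs described here are 10 listed genes of the circadian oscillator: Dbp, Tef, Per1, Per2, Per3, Nr1d1, Nr1d2, Clock, Cry1 and Cry2. Each was represented by its brightest probe set among those annotated to a single gene symbol. That left 9 of the 10, and all 9 passed the filter on low values, among 13453 genes tested of 22180 in the series. The probe set of Per2 was annotated to 2 genes, so Per2 has no value here. Dbp was put on the list because of its rise with thyroxine in these arrays, so its thyroxine values are a description and were not tested.

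The series holds 16 Affymetrix whole-transcript arrays of RNA from cells cultured from the coronal suture, the fibrous joint that separates the frontal and parietal bones of the skull, of C57BL6 mice. The groups were Twist1+/- cells with thyroxine, Twist1+/- cells in control medium, wild-type cells with thyroxine and wild-type cells in control medium, each after 7 days and after 3 days in culture. Thyroxine, the main thyroid hormone in blood, was given at 1 µM in the same growth medium (DMEM with serum) that all groups shared. Each of the 8 groups held 2 arrays, 1 of female and 1 of male cells, from 4 cultures in all, so each genotype rests on 2 cultures drawn from 2 litters. Twist1 encodes a transcription factor of the skull mesenchyme, and Twist1+/- animals carry a single working copy. The Twist1 allele, the age of the mice and the time of day at which RNA was taken are given in none of the sources used here. Levels and differences are log2 values from the authors' RMA processing, and a level of a gene cannot be set against that of another gene, because each probe set has its own brightness. P-values measure the spread between these arrays, which may be technical in part. Where groups are said to lie apart, the share of all genes that separate as fully was not counted. With 2 arrays in a group such separations easily arise by chance.

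The mammalian clock is a feedback loop. CLOCK and its partner BMAL1 (gene Arntl) switch on the Per and Cry genes through E-boxes, and the PER and CRY proteins then repress them. The same pair drives Nr1d1 and Nr1d2, nuclear receptors that repress Arntl, and the PAR bZIP factors DBP and TEF, which bind D-boxes in output genes and in some Per genes. Nearly all cells, bone-forming cells included, have this loop, and cells in a dish drift out of phase with each other unless a stimulus such as fresh serum aligns them.

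The promoters of Dbp, Per1 and Per3 are shown because these members had the most similar profiles across the arrays. The windows are RefSeq sequences of build GRCm38.p6, from 250 bases before to 50 bases after the start site, written 5′ to 3′ on the strand of the gene, with E-boxes (CACGTG) and D-boxes (TTATGCAA or TTATGTAA) in capitals. The Dbp window lies at chr7:45704997-45705296 on the plus strand, that of the first of 2 Per1 start sites at chr11:69098699-69098998 on the plus strand, and that of Per3 at chr4:151044616-151044915 on the minus strand.
Dbp: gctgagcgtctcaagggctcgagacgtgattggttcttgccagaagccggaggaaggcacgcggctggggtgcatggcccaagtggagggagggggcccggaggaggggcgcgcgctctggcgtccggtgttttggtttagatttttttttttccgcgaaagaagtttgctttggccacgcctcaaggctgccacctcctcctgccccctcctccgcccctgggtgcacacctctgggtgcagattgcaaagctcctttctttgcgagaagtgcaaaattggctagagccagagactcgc
Per1: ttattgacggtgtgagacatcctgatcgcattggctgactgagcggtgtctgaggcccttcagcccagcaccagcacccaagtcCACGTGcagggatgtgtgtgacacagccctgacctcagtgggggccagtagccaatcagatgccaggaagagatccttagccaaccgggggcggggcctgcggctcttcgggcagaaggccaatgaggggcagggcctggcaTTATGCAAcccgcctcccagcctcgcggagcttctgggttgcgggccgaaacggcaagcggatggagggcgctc
Per3: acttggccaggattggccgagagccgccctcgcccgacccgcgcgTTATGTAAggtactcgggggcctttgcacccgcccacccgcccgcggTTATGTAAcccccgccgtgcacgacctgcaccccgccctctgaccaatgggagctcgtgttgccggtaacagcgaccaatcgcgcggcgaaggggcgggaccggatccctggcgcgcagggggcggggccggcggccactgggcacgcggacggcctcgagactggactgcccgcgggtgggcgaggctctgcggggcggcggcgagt

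Per1 had an E-box 166 bases and a D-box 24 bases before its start site, and Per3 had 2 D-boxes, 205 and 158 bases before it. The Dbp window held neither. On both strands, an E-box was present in 7.15% and a D-box in 1.66% of all 32851 promoter windows of the same length. In all, 5 motifs were searched, and 0 hits of different motifs overlapped. The E-prime box CACGTT (4.68% of windows) was found in Nr1d1, Cry1 and Cry2, and an E-box in Cry1 and in front of both start sites of Tef. The nuclear receptor half-site AGGTCA (16.3% of windows) was found in Per1, Nr1d2 and the third Clock window, and the CRE half-site TGACG (20.8% of windows) in Per1, Cry1 and Cry2. The 9 members have 13 start sites in the RefSeq table. These matches describe letters in short windows only.

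**Figure D1:**
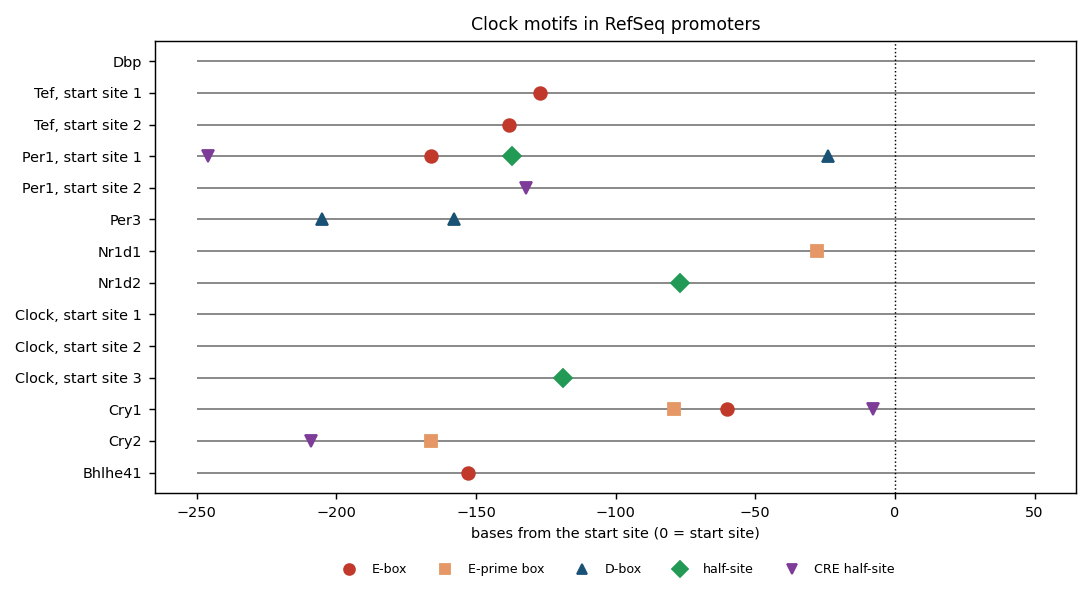
Position of the 5 searched motifs, as coloured symbols, in the RefSeq promoter window of each start site of the members and of Bhlhe41 (horizontal axis: bases from the start site, 250 before to 50 after; a grey line for each window). Per1 start site 1 holds an E-box and a D-box, Per3 holds 2 D-boxes and Dbp holds none of the motifs.

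Some facts of the whole series bear on the values below. The filter on low values lay at a mean of 3.905. The mesenchymal genes Prrx1 (9.91 to 10.71) and Col1a1 (11.75 to 12.93) lay well above it on every array. The macrophage genes Csf1r (8.43 to 10.46) and Lyz2 (11.46 to 13.07) did so too. Not all markers of these lists were bright. The mesenchymal marker Gli1 (3.05 to 3.72) lay below the filter. Axin2 (4.55 to 5.37) and Alpl (4.69 to 5.84) lay not far above it, as did the osteoclast marker Acp5 (4.79 to 5.79). Endothelial markers averaged 4.17 to 4.575, muscle markers 4.84 to 5.51, keratinocyte markers 4.165 to 5.02 and neural markers 5.165 to 6.03 on the 16 arrays. The 12 macrophage and osteoclast markers averaged 9.81 at 7 days (range over 8 arrays 9.57 to 9.99) and 8.63 at 3 days (7.80 to 9.71). The wild-type male culture stood apart, with marker means of 9.68 to 9.99 on its 4 arrays, against 7.80 to 9.88 on the other 12. The 11 mesenchymal and osteoblast markers averaged 7.50 to 7.54 there, against 7.96 to 8.26. The 2 control Twist1+/- arrays of 7 days also stood apart, with Rps18, a ribosomal protein gene, at 6.05 and 6.27, against 7.89 to 9.02 on the other 14 arrays.

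Dbp varied most among the members. It ranged from 7.15 to 8.80 over the 16 arrays, a span of 1.65. This lay at the 93.9th percentile of the tested genes, whose median span was 0.76. That span includes the thyroxine rise for which Dbp was picked. Clock and Nr1d1 varied least, with spans of 0.40 and 0.44. The spans of Tef, Per1, Per3, Nr1d2, Cry1 and Cry2 lay between 0.65 and 0.82.

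**Figure D2:**
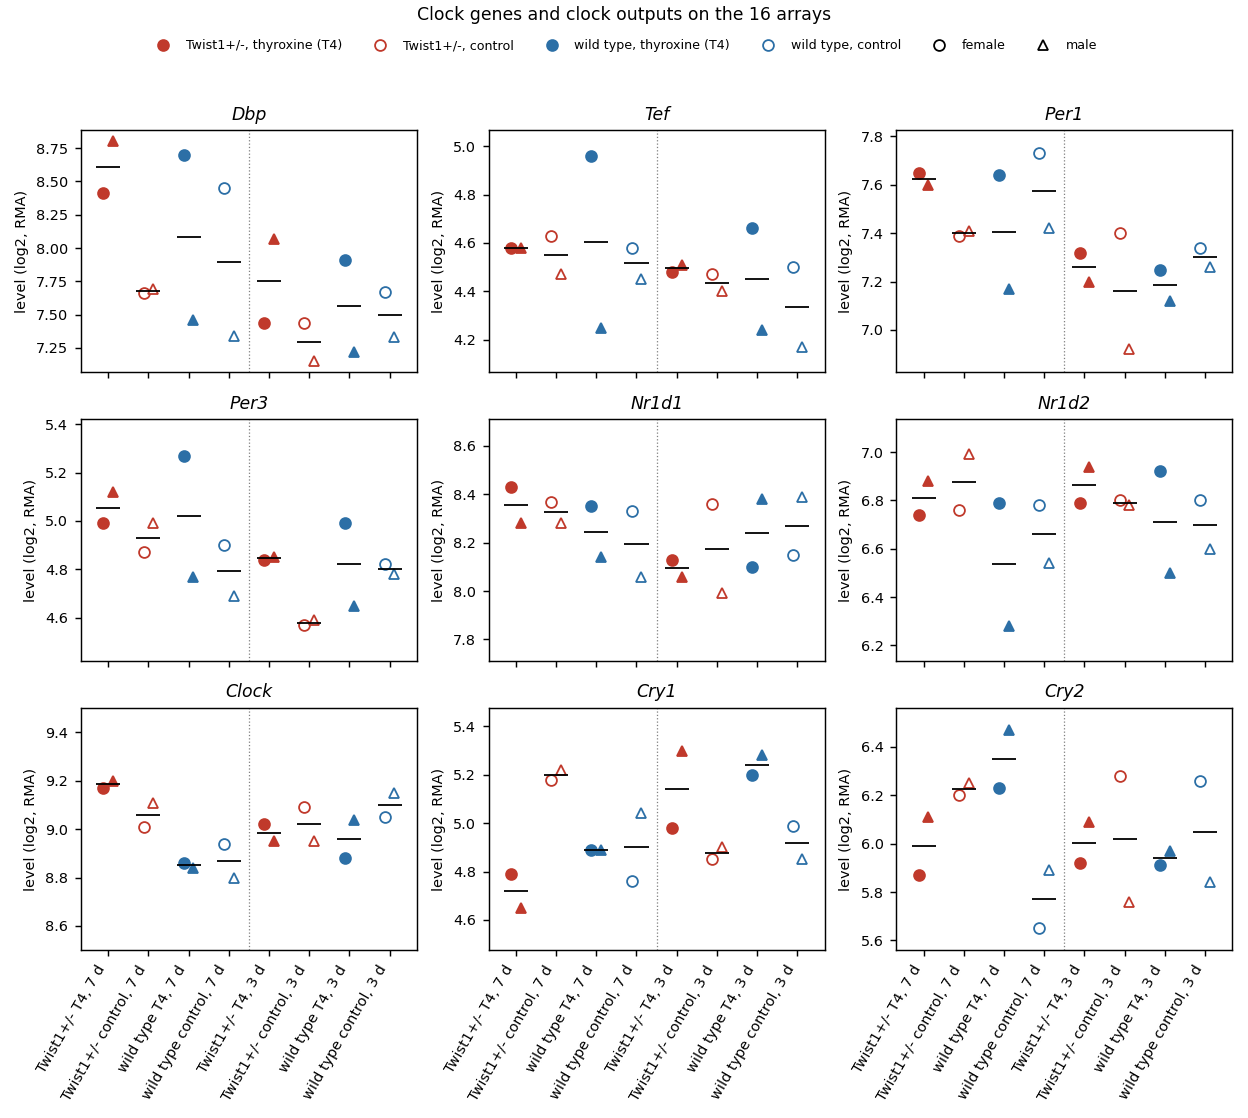
Level of each member (vertical axis, log2 RMA value, own scale for each gene) in the 8 groups along the horizontal axis, with 1 point for each array, circles for female and triangles for male cells and a line at the mean of the 2 arrays. Filled points are thyroxine and open points control, red Twist1+/- and blue wild type. The Dbp points of Twist1+/- cells with thyroxine at 7 days, 8.41 and 8.80, lie above both of their controls, 7.66 and 7.69. Dbp was picked for its rise with thyroxine.

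Dbp, the output factor on which the list was built, was highest in Twist1+/- cells with thyroxine at 7 days, at 8.41 in female and 8.80 in male cells. In Twist1+/- control medium at 7 days it was 7.66 and 7.69. Both treated arrays of this age therefore lay above both controls. At 3 days Dbp was 7.44 and 8.07 in Twist1+/- cells with thyroxine and 7.44 and 7.15 in Twist1+/- control medium, so the female pair did not differ and the male pair did. In wild-type cells at 7 days it was 8.70 and 7.46 with thyroxine and 8.45 and 7.34 in control medium, and at 3 days 7.91 and 7.22 with thyroxine and 7.67 and 7.33 in control medium. The wild-type groups overlapped on both days, and the female wild-type culture was higher than the male one in each of them.

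In order of the group means, Dbp stood at 8.605 in Twist1+/- cells with thyroxine at 7 days, then at 8.08 and 7.895 in wild-type cells at 7 days with thyroxine and in control medium. Twist1+/- cells with thyroxine at 3 days followed at 7.755, Twist1+/- control medium at 7 days at 7.675, and wild-type cells at 3 days at 7.565 with thyroxine and 7.50 in control medium. Twist1+/- control medium at 3 days was lowest at 7.295. Each group overlapped the next in this order, while the highest and the lowest did not overlap.

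Within the 8 pairs of a thyroxine and a control array of the same culture and day, Dbp was higher with thyroxine in 6, lower in 1 and the same in 1. The mean difference was 0.41 ± 0.45 (SD, n = 8 pairs), a fold of 1.33. In Twist1+/- cells the differences were 0.75 and 1.11 at 7 days and 0.00 and 0.92 at 3 days, with a mean of 0.695. In wild-type cells they were 0.25 and 0.12 at 7 days and 0.24 and -0.11 at 3 days, with a mean of 0.125. The Twist1+/- mean exceeded the wild-type mean by 0.57 and the mean at 7 days exceeded that at 3 days by 0.295, and neither contrast was tested because Dbp was chosen on its thyroxine values. Without the Twist1+/- arrays of 7 days the mean difference was 0.24. Klf9, a directly induced target of thyroid hormone receptors, was higher with thyroxine in 8 of 8 pairs, by 0.30 to 0.86, with means of 0.58 in Twist1+/- and 0.53 in wild-type cells.

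**Figure D3:**
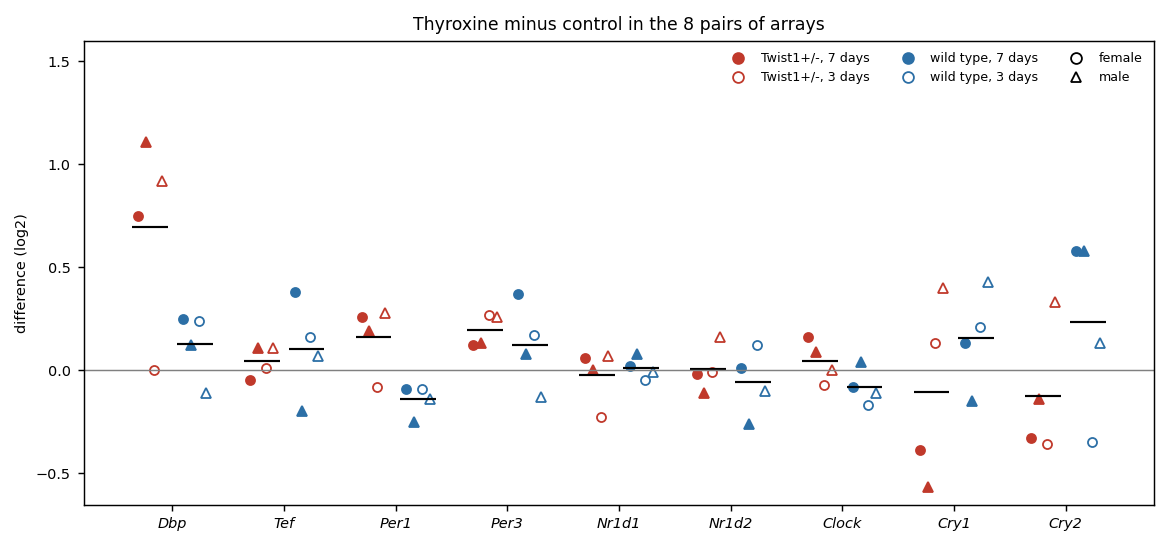
Thyroxine minus control difference (vertical axis, log2) of each member in the 8 pairs of arrays, with red Twist1+/- pairs to the left of blue wild-type pairs for each gene, filled points for 7 days, open points for 3 days, circles for female and triangles for male cells, and a line at the mean of 4 pairs. Only for Dbp do 3 of 4 Twist1+/- pairs lie above every other difference in the plot, between 0.75 and 1.11. Dbp was picked for its rise with thyroxine, so its place in the plot follows from that choice.

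Of the other 8 members, 0 were called by limma with Benjamini-Hochberg adjustment for thyroxine over all pairs, where 0.0966% of all tested genes were called, and 0 had an unadjusted p under 0.05. Their median difference was 0.02, against -0.02 over all tested genes. Per3, a period gene of weaker feedback than Per1 and Per2, came closest. With thyroxine it was 4.99 and 5.12 in Twist1+/- and 5.27 and 4.77 in wild-type cells at 7 days, against 4.87 and 4.99 in Twist1+/- and 4.90 and 4.69 in wild-type control medium. At 3 days it was 4.84 and 4.85 in Twist1+/- and 4.99 and 4.65 in wild-type cells with thyroxine, against 4.57 and 4.59 in Twist1+/- and 4.82 and 4.78 in wild-type control medium. It was higher with thyroxine in 7 of 8 pairs, the exception being the wild-type male pair of 3 days, and averaged 0.16 ± 0.08 higher (SE; adjusted p = 0.829, limma). Both treated Twist1+/- arrays of 3 days lay above their controls, those of 7 days met at 4.99, and the groups overlapped in wild-type cells.

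Tef, the PAR bZIP factor related to Dbp, differed with thyroxine by 0.07 (adjusted p = 0.925, limma), with pair differences from -0.20 to 0.38. The core repressor Per1 differed by 0.01 (adjusted p = 0.989) and the repressors Cry1 and Cry2 by 0.02 and 0.055 (adjusted p = 0.981 and 0.943). The nuclear receptors Nr1d1 and Nr1d2 differed by -0.01 and -0.03 (adjusted p = 0.991 and 0.965), and the activator Clock by -0.02 (adjusted p = 0.971). Values for Clock, Nr1d1 and Nr1d2 stayed between -0.26 and 0.16 in every pair.

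By genotype, 0 of the 8 members were called for thyroxine in Twist1+/- cells (background 0.201% of tested genes) and 0 in wild-type cells (background 0.0149%), and 0 in either had an unadjusted p under 0.05 in limma. Per1 had opposite signs. In Twist1+/- cells its level at 7 days was 7.65 and 7.60 with thyroxine, against 7.39 and 7.41 in control medium, and at 3 days 7.32 and 7.20, against 7.40 and 6.92. The difference was 0.16 (adjusted p = 0.524, limma), positive in 3 of 4 pairs. In wild-type cells its level at 7 days was 7.64 and 7.17 with thyroxine, against 7.73 and 7.42 in control medium, and at 3 days 7.25 and 7.12, against 7.34 and 7.26. The difference was -0.14 (adjusted p = 0.908, limma), negative in 4 of 4 pairs. The Twist1+/- minus wild-type difference in response was 0.305 ± 0.12 (SE; adjusted p = 0.468, limma, against an unadjusted 0.0212). For this contrast 0.0595% of tested genes and 0 of the 8 members were called. Per1 was the 1 member of 8 with an unadjusted p under 0.05, and 1282 of all 13453 tested genes had one. That count is therefore not read as a result about the members. The Twist1+/- controls of 7 days stood apart from the other arrays. At 3 days alone the mean Per1 response was 0.10 in Twist1+/- and -0.115 in wild-type cells.

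Cry2 differed the other way, by -0.125 in Twist1+/- cells and 0.235 in wild-type cells (adjusted p = 0.765 and 0.908, limma), and the difference between them was -0.36 (adjusted p = 0.539). Without the Twist1+/- arrays of 7 days, whose controls stood apart, the genotypes could be compared at 3 days only. The wild-type pairs of 7 days dropped out as well, and the Cry2 difference was 0.095 (adjusted p = 0.997, limma). At 7 days its wild-type levels were 6.23 and 6.47 with thyroxine and 5.65 and 5.89 in control medium, so both treated arrays lay above both controls. Its Twist1+/- levels at that age were 5.87 and 6.11 with thyroxine and 6.20 and 6.25 in control medium, so both lay below. At 3 days the arrays of both genotypes overlapped.

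Cry1, the strongest repressor of the loop, had mostly negative thyroxine differences at 7 days and positive ones at 3 days. At 7 days it was 4.79 and 4.65 in Twist1+/- cells with thyroxine, against 5.18 and 5.22 in control medium, and 4.89 and 4.89 in wild-type cells with thyroxine, against 4.76 and 5.04 in control medium. At 3 days it was 4.98 and 5.30 in Twist1+/- cells with thyroxine, against 4.85 and 4.90, and 5.20 and 5.28 in wild-type cells with thyroxine, against 4.99 and 4.85. The thyroxine arrays of 3 days were above both controls of their genotype, by 0.13 to 0.43 within pairs, whereas 3 of 4 pairs of 7 days were negative, by -0.57 to -0.15. The response at 7 days minus that at 3 days was -0.54 ± 0.17 (SE; adjusted p = 0.889, limma, against an unadjusted 0.00639). For this contrast 0.00743% of tested genes and 0 of the 8 members were called, so the Cry1 difference did not hold after adjustment over all genes. Without the Twist1+/- arrays of 7 days that contrast rests on wild-type cells alone, where it was -0.33 (adjusted p = 0.995, limma).

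Of the rest of the clock, 16 of 20 listed machinery genes and 7 of 8 listed output genes were tested. For thyroxine over all pairs 0 of the 16 and 0 of the 7 were called, with medians of -0.05 and -0.02. The output Usp2, a deubiquitinase, had a difference of 0.20 (adjusted p = 0.671, limma), the kinase Gsk3b -0.13 (adjusted p = 0.740) and the repressor Bhlhe40 -0.135 (adjusted p = 0.765). In the Twist1+/- minus wild-type contrast the repressor Bhlhe41 differed by 0.495 (adjusted p = 0.378).

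Culture time gave the clearest differences. Of the 9 members, 2 were called for 7 against 3 days, both higher at 7 days, where limma called 18.5% of all tested genes, 9.84% higher and 8.69% lower. The count of 2 of 9 is close to that background. It includes Dbp, which was picked on its thyroxine values, and among the 8 other members 1 was called. The members' median difference was 0.085, against -0.02 over all tested genes, with 6 members higher and 3 lower. RNA came from whole wells, so fewer cells of a type and less RNA per cell cannot be told apart in these values.

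Dbp was 7.34 to 8.80 at 7 days, with a median of 8.05, and 7.15 to 8.07 at 3 days, with a median of 7.44. The ranges overlapped, but Dbp was higher at 7 days in 8 of 8 comparisons of the same culture and medium. In Twist1+/- cells the gain was 0.97 in female and 0.73 in male cells with thyroxine, and 0.22 and 0.54 in control medium. In wild-type cells it was 0.79 in female and 0.24 in male cells with thyroxine, and 0.78 and 0.01 in control medium. The male wild-type culture showed the smallest gains in both media. Over all arrays Dbp rose by 0.535 ± 0.15 (SE, 1.45-fold; adjusted p = 0.0298, limma). The thyroxine arrays, on whose rise Dbp was picked, enter every culture time fit that uses both media. The p-values of Dbp in those fits are thus not free of that choice. In control medium alone the difference was 0.39 (adjusted p = 0.281), and without the 2 control Twist1+/- arrays of 7 days it was 0.59 (adjusted p = 0.0791).

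Per1, which represses CLOCK and BMAL1, was 7.17 to 7.73 at 7 days (median 7.51) and 6.92 to 7.40 at 3 days (median 7.255). It was higher at 7 days in 7 of 8 comparisons, by up to 0.49, and the Twist1+/- female control comparison was level at -0.01. It rose by 0.275 ± 0.07 (SE, 1.21-fold; adjusted p = 0.0180, limma). The call was lost in control medium alone (0.26, adjusted p = 0.284) and without the 2 control Twist1+/- arrays of 7 days (0.29, adjusted p = 0.0512). It was also lost without the Twist1+/- male culture (0.20, adjusted p = 0.157) and without the wild-type female culture (0.20, adjusted p = 0.152).

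**Figure D4:**
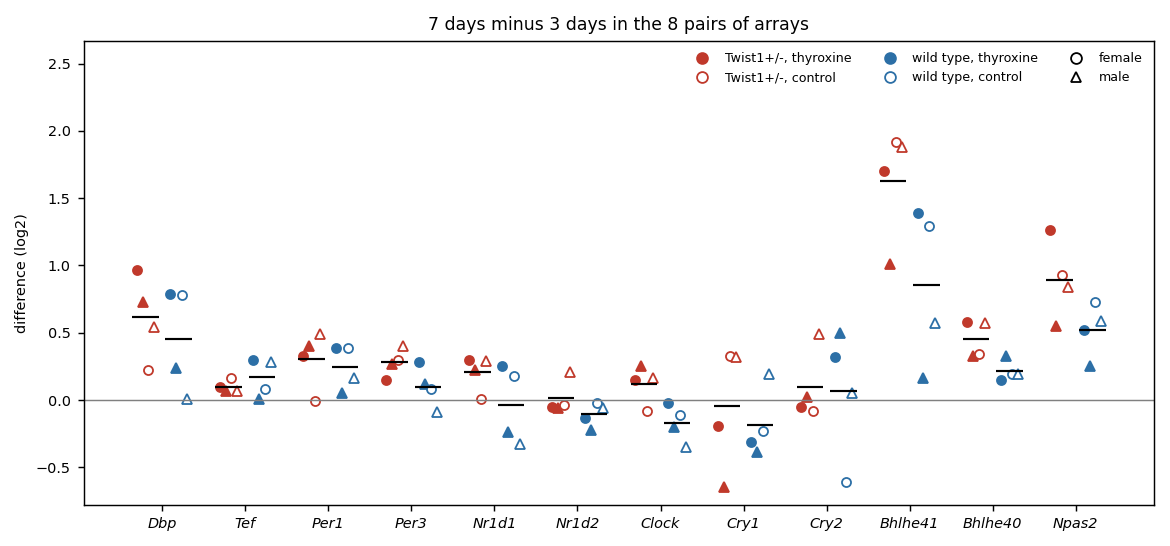
Difference of 7 days minus 3 days (vertical axis, log2) for each member and for Bhlhe41, Bhlhe40 and Npas2 in the 8 pairs of arrays of the same culture and medium, with red Twist1+/- points left of blue wild-type points, filled points for thyroxine, open points for control, circles for female and triangles for male cells, and a line at the mean of 4. The Dbp points lie between 0.01 and 0.97, and those of Bhlhe41 between 0.16 and 1.92, all above 0.

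The other 7 members did not pass limma's threshold for culture time. Per3 had a difference of 0.19 ± 0.08 (SE; adjusted p = 0.125) and was higher at 7 days in 7 of 8 comparisons, and Tef had one of 0.13 ± 0.09 (adjusted p = 0.321) and was higher in 8 of 8, by 0.01 to 0.30. Nr1d1 and Cry2 differed by 0.085 and 0.08 (adjusted p = 0.495 and 0.636). Clock, Nr1d2 and Cry1 differed by -0.03, -0.05 and -0.12 (adjusted p = 0.807, 0.736 and 0.336). Nr1d2 was lower at 7 days in 7 of 8 comparisons, with differences of -0.22 to -0.02 in those 7.

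Within each genotype 0 of the 9 members were called, against 14.6% of tested genes in Twist1+/- cells and 0.111% in wild-type cells. With the culture as a fixed block in place of a random one, Dbp and Per1 were called in Twist1+/- cells (adjusted p = 0.0143 and 0.0483, limma). Calls over all genes in Twist1+/- cells ranged from 0 to 3017 across the alternatives. These calls are therefore not read as a result about the members as a group. With the random block, 3 members in Twist1+/- cells had an unadjusted p under 0.05 in limma, Per1 (0.30, adjusted p = 0.063), Dbp (0.615, adjusted p = 0.0788) and Per3 (0.28, adjusted p = 0.120). In wild-type cells 2 had, Per1 (0.25, adjusted p = 0.248) and Clock (-0.17, adjusted p = 0.299), while Dbp had 0.455 (adjusted p = 0.324). Of all 13453 tested genes, 3921 had an unadjusted p under 0.05 in Twist1+/- cells and 2212 in wild-type cells. The counts of 3 and 2 of 9 are therefore not read as a result about the members. In the wild-type female culture alone the Dbp difference was 0.785, which rests on 2 arrays of 7 days and 2 of 3 days of 1 culture and was not counted as a call. For the Twist1+/- minus wild-type difference in the change with time 0% of genes were called by limma, though 1174 had an unadjusted p under 0.05. Clock had the smallest p among the members there (0.29, adjusted p = 0.559): at 7 days minus 3 days it was positive in 3 of 4 Twist1+/- comparisons, from -0.08 to 0.25, and negative in 4 of 4 wild-type ones, from -0.35 to -0.02.

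Among the other machinery genes 3 of 16 were called for culture time, all higher at 7 days, and among the outputs 0 of 7. The share of 3 in 16 is close to the 18.5% called over all tested genes, so these 3 are described as single genes. Bhlhe41 and Bhlhe40 encode the DEC repressors, which compete with CLOCK and BMAL1 at E-boxes, and Npas2 encodes a stand-in for CLOCK. Bhlhe41 was 7.62 to 8.11 at 7 days (median 7.97) and 6.02 to 7.46 at 3 days (median 6.69), without overlap, and rose by 1.24 ± 0.13 (SE, 2.36-fold; adjusted p = 0.000316, limma). Bhlhe40 rose by 0.335 ± 0.07 (adjusted p = 0.00443) and Npas2 by 0.71 ± 0.18 (adjusted p = 0.0181), each in 8 of 8 comparisons. The Npas2 call was lost in control medium alone (0.77, adjusted p = 0.125), and without the 2 control Twist1+/- arrays of 7 days (0.65, adjusted p = 0.0975). The Bhlhe40 call was lost in control medium alone (0.32, adjusted p = 0.133). Arntl, the partner of Clock, had a difference of -0.20 (adjusted p = 0.152), and the outputs Wee1, a cell cycle kinase, and Nampt, an enzyme of NAD synthesis, had -0.17 and 0.335 (adjusted p = 0.0600 and 0.0722).

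Markers of other cells moved with culture time as well. Of the 12 macrophage and osteoclast markers 11 were called higher at 7 days, with a median difference of 1.40. All 7 cell division markers were lower, 6 of them called, with a median of -0.28. Of the 10 tested mesenchymal markers 7 were lower and 3 higher, with 2 called lower and 0 called higher. The 1 tested keratinocyte marker, Cdh1, rose by 0.37 (adjusted p = 0.011, limma). All 4 muscle markers were lower, 1 of them called, and 0 of 3 endothelial and 0 of 2 neural markers were called. In the wild-type male culture the macrophage marker mean was 9.86 at 7 days and 9.69 at 3 days. That culture also had the smallest 7-day gains of Dbp, 0.24 and 0.01, and of Bhlhe41, 0.16 and 0.57 (thyroxine and control). This did not hold for Per1 and Bhlhe40 in both media. Per1 gained 0.05 and 0.16 there, but -0.01 in the Twist1+/- female control. Bhlhe40 gained 0.33 and 0.19 there, against 0.15 and 0.19 in the wild-type female culture. In the Twist1+/- female culture the marker mean was 9.65 at 7 days and 7.91 at 3 days, in the Twist1+/- male culture 9.87 and 8.57, and in the wild-type female culture 9.85 and 8.34. The part of these cells in the differences of Dbp, Per1 and the DEC genes was not tested.

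**Figure D5:**
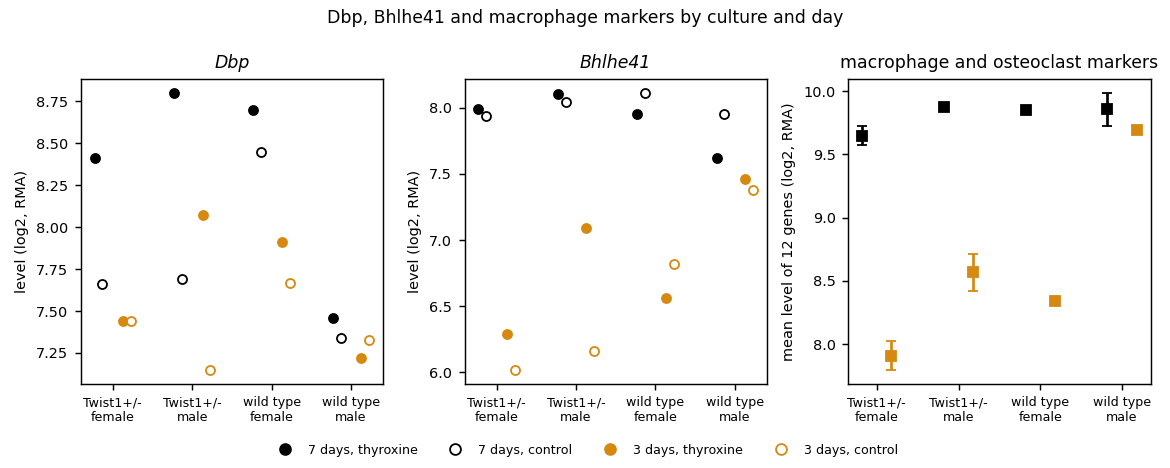
Level of Dbp and of Bhlhe41 (vertical axes, log2 RMA value, 1 point for each array, filled for thyroxine and open for control) and mean level of 12 macrophage and osteoclast markers (squares: mean of 2 arrays, bars: both arrays) in the 4 cultures, with 7 days in black left of 3 days in orange. In the wild-type male culture Dbp stays between 7.22 and 7.46 and the marker mean between 9.68 and 9.99 on both days.

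By genotype, 0 of the 9 members were called, and limma called 0% of all tested genes, though 619 had an unadjusted p under 0.05 and 0 members did. Nr1d2 was 6.74 to 6.99 in Twist1+/- cells (median 6.795) and 6.28 to 6.92 in wild-type cells (median 6.69), a difference of 0.18 (adjusted p = 0.937). Clock differed by 0.12 (adjusted p = 0.937) and Dbp by 0.07 (adjusted p = 0.980). At 7 days alone Clock was 9.01 to 9.20 in Twist1+/- cells and 8.80 to 8.94 in wild-type cells, without overlap. The difference was 0.26 (adjusted p = 0.641, limma). That split was picked from many, and the share of all genes separated in this way was not counted.

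For Dbp, the cultures of a genotype differed more from each other than the genotype means did. It averaged 7.74 ± 0.46 in the Twist1+/- female culture and 7.93 ± 0.69 in the Twist1+/- male culture (SD, n = 4 arrays each). It averaged 8.18 ± 0.48 in the wild-type female culture and 7.34 ± 0.10 in the wild-type male culture. The 4 wild-type male arrays lay below all 4 wild-type female arrays. Nr1d2 averaged 6.48 ± 0.14 in the wild-type male culture and 6.77 to 6.90 in the others, and Tef 4.28 there and 4.49 to 4.675 in the others. Between the male cultures alone, of which the wild-type one stood apart in its macrophage and mesenchymal markers, Dbp was 0.59 higher and Nr1d2 0.42 higher in Twist1+/- cells. Between the female cultures alone the Twist1+/- minus wild-type differences were -0.445 for Dbp and -0.05 for Nr1d2. The sign thus turned between the female and the male cultures. Sex and culture cannot be told apart, because each genotype has 1 culture of each sex. Each of these comparisons sets 1 culture against 1, with no replicate of a genotype and no test.

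Across the 16 arrays, after the mean of each culture was taken away, Dbp correlated at 0.82 with Per1 and at 0.79 with Per3, places 109 and 209 among 13452 genes ranked by likeness to Dbp. Tef and Nr1d1 followed at 0.58 and 0.53, Clock at 0.225, Cry2 at 0.04, Nr1d2 at -0.09 and Cry1 at -0.44. Among the other clock genes and outputs named above, the largest values in size were Arntl -0.79, Bhlhe41 0.75, Npas2 0.69 and Wee1 -0.63. Over the 36 pairs of members the values ran from -0.47, for Per1 with Cry1, to 0.82, with a median of 0.16. The arrays share cultures, days and media, so these correlations describe a common order of the arrays and carry no test.

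The 5 named genes most like Dbp by this measure were Glrx (0.94), a glutaredoxin, Zfp414 (0.939), a zinc finger protein, Mid1 and Trim8 (0.937 each), both of the TRIM family of ubiquitin ligases, and Crlf2 (0.935), a cytokine receptor subunit. Before the culture means were taken away the same correlations were 0.10, 0.83, 0.81, 0.62 and 0.42. Because these 5 genes were picked for likeness to Dbp on the same arrays, sharing its highest group is no separate result. Of them, 4 had their highest group mean in Twist1+/- cells with thyroxine at 7 days, as Dbp did. Glrx had its highest, 9.20, in wild-type cells with thyroxine at 7 days. Mid1, for example, averaged 9.225 in Twist1+/- cells with thyroxine and 8.815 in Twist1+/- control medium at 7 days. In wild-type cells of that age it averaged 8.475 with thyroxine and 8.46 in control medium.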

How the data were processed

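The members and gene lists were chosen with earlier results of these data known. Per the submitters' processing notes, the authors ran RMA in Affymetrix Expression Console, and the deposited table gives a log2 value for each probe set and array. RMA forces the same distribution on all arrays, so a shift of all genes would not be seen. For software versions and the genome build nothing is given in the sources used here. Each array had 100 ng of RNA from cells grown in 3 wells, per the labels. Values lay from 0.57 to 14.05, with array medians of 3.73 to 3.86.

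By the platform annotation 23521 of 41345 probe sets had 1 symbol, 1814 had several and 16010 had none. The brightest one-symbol probe set was taken for each of 22180 genes. A filter at the 40th percentile of these probe sets, a mean of 3.905, left 13453 genes. These were tested with limma 3.58.1 (R 4.3.3; two-sided moderated tests after eBayes with an intensity trend) and Benjamini-Hochberg adjustment at 0.05 over all of them. For thyroxine, each pair of arrays (same genotype, sex and day) entered as a fixed block, because the labels put both media on a plate. As a check, male minus female differences of thyroxine and control arrays had correlations of 0.393 (Twist1+/-, 7 days), 0.119 (Twist1+/-, 3 days), 0.721 (wild type, 7 days) and 0.771 (wild type, 3 days). The fit for culture time and genotype had 8 group means, a sex term and a random block for the culture (statmod 1.5.0, correlation 0.202). Named were all members, the called genes of the other clock lists with up to 4 more of smallest p, and the 5 genes most like Dbp. Of the machinery genes, Csnk1d (a probe set of several genes) and Fbxl21 (below the filter) were not tested, and some other listed genes are not reported here.

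The fits were tested on simulated data of 13453 genes, 100 changed by 0.5 and 100 by 1. The thyroxine fit over all pairs recovered 68% and 99% with 11 false calls of 178, and the culture time fit 79% and 100% with 6 of 185. Alternatives were the block, the intensity trend, the filter, the probe set summary, the centring of arrays, and media or cultures left out.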

Additional observations from a re-analysis of the deposited data

Results flagged for a closer look

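Nr1d1 differed by -0.23 with thyroxine in the Twist1+/- female pair of 3 days, 8.13 with thyroxine and 8.36 in control medium, while the other 7 pairs lay between -0.05 and 0.08. Nr1d2 at 7 minus 3 days differed by 0.21 in the Twist1+/- male control arrays, 6.99 at 7 days and 6.78 at 3 days, while the other 7 comparisons lay between -0.22 and -0.02. Each value was far from the rest of its 8 by Dixon's gap test, which marks about 1 in 20 such groups by chance.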

How the results depend on the processing

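For thyroxine, 0 of the 8 members other than Dbp were called over all pairs, in either genotype and in the genotype and day contrasts under every alternative run, leaving out each pair of arrays included (0 to 0). Without the pair block (no replicate block) these 5 counts were also 0, and the mean Dbp difference was again 0.41. Leaving out parts of the data moved the Dbp difference between 0.24 and 0.525. Over all genes the thyroxine calls ranged from 0 to 29 around 13 over all pairs, from 0 to 232 around 27 in Twist1+/- cells, from 0 to 9 around 2 in wild-type cells, from 0 to 202 around 8 for the genotype contrast and from 0 to 17 around 1 for the day contrast. Without the block they were 3, 1, 0, 0 and 0.

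For culture time, 2 members were called. Without the filter on low values 1 was called, as Dbp missed the threshold (0.535, adjusted p = 0.0728, limma), and Npas2 missed it too (0.71, adjusted p = 0.057). With control medium arrays alone, which are fewer, 0 were called, and without the 2 control Twist1+/- arrays of 7 days, an alternative chosen after the data were seen, 0 were called. Leaving out 1 culture gave 1 to 3 members, with Nr1d1 joining without the wild-type male culture (0.21, adjusted p = 0.0449). In Twist1+/- cells 0 were called, and 2 with the culture as a fixed replicate block (Dbp, adjusted p = 0.0143, and Per1, adjusted p = 0.0483), while leaving out 1 culture gave 0 to 2. In wild-type cells leaving out 1 culture gave 0 to 1 in place of 0, and for genotype 0 to 2 in place of 0. Leaving out 1 of the 2 cultures of a genotype leaves a single culture in that arm, whose arrays are assumed to vary like those of the other groups, so calls gained there have no replicate of the genotype behind them. The 2 gained for genotype, Dbp and Nr1d2, compare the male cultures only, and between the female cultures Dbp differed by -0.445. Over all genes the culture time calls ranged from 512 to 3509 around 2493, from 0 to 3017 around 1969 in Twist1+/- cells and from 0 to 1623 around 15 in wild-type cells. The difference in the change with time gave 0 to 709 and genotype 0 to 3089, both around 0. In 0 of the alternatives did a called value change sign, and where no cause is named the cause was not tested. The number of arrays, 2 in each group, limits the precision.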
